A study of Homo sapiens with 18 samples.

Results

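This comparison asks where the loss of ZNF263 moved a gene differently in H9 and in H1, both established lines of human embryonic stem cells. It is the knockout effect in H9 minus the knockout effect in H1, the line-by-genotype interaction, and it uses 15 of the 18 libraries of the series. The groups are H1 wild type, H1 clone 1-10, H9 wild type, H9 clone 9-1 and H9 clone 9-D, with 3 libraries each. All 3 clones are labelled as homozygous ZNF263 knockouts made with Cas9, so the H1 effect rests on 1 clone and the H9 effect on 2. Genes were taken into the comparison as autosomal genes with enough counts, 14911 of the 15802 genes tested on all chromosomes, and no gene was chosen by its values. The labels do not say whether the 3 libraries of a group were separate cultures, so the p-values measure the spread between these libraries, and they give no batch. Cell line, clone and any difference in handling between the H1 and H9 experiments cannot be told apart.

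ZNF263 encodes a transcription factor with a SCAN domain and an array of C2H2 zinc fingers that binds G-rich, GGGAGGA-containing DNA, often near gene starts. Human embryonic stem cells keep an undifferentiated state through POU5F1, SOX2 and NANOG, together with NODAL and FGF signalling. Different lines carry different genetic and epigenetic backgrounds. In bulk RNA, a change in the number of cells of a type and a change in RNA per cell cannot be told apart.

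Genes with opposite effects in the lines are illustrated by the 250 bases before the start of 4 of them. GDA is shown as the gene with the largest line difference, and TRIM58, DPEP3 and ABCA1 as the named opposite genes that hold the letters GGGAGGA on either strand. The stretches are from RefSeq on GRCh38.p14, 5′ to 3′ on the gene's strand, at chr9:72149190-72149439 (plus strand) for GDA, chr1:247856937-247857186 (plus) for TRIM58, chr16:67980500-67980749 (minus) for DPEP3 and chr9:104928156-104928405 (minus) for ABCA1. Capitals mark GGGAGGA or its reverse complement TCCTCCC.
GDA: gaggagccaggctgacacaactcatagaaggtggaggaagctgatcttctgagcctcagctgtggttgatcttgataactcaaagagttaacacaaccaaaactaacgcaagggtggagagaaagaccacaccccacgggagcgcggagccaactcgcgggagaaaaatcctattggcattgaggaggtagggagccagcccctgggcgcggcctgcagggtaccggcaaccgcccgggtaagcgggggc
TRIM58: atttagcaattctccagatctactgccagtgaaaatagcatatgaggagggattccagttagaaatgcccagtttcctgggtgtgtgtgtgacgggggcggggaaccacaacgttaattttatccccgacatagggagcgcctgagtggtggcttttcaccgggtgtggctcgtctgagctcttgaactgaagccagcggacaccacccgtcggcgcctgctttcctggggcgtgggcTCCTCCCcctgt
DPEP3: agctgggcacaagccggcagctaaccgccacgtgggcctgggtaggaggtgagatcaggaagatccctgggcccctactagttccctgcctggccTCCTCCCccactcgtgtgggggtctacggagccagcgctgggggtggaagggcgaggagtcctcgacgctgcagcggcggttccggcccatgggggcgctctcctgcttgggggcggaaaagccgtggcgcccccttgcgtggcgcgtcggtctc
ABCA1: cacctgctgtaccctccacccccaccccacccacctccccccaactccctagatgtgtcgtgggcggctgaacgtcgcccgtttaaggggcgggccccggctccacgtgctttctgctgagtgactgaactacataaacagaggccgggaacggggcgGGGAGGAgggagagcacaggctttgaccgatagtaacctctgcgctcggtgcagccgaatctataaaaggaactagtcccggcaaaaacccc
The named opposite genes are the 10 of largest line difference in each direction among those with at least 2 CPM in a group. Of these 20, 17 had such a stretch and 3 held the letters. Over all 11647 tested autosomal genes with a stretch, 19.6% held them. The share was 20% (10 of 50) among opposite genes higher in the H9 knockouts and 26.3% (5 of 19) among those lower there. It was 24.1% and 22.2% among genes restricted to H9 (defined below), with the H9 effect higher and lower. Among genes restricted to H1 it was 20.5% and 30.4%. These are counts of letters, not of bound sites.

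The knockout effect differed between the lines for 1283 autosomal genes, 8.6% of those tested (edgeR quasi-likelihood F test, Benjamini-Hochberg adjusted p at or under 0.05). The H9 effect was the higher for 711 (4.77%) and the lower for 572 (3.84%), and the difference was at least 2-fold for 282. The median difference over all tested genes was -0.00315 on the log2 scale. Within the lines, the knockout effect passed the test for 1671 genes in H1 (11.2%; 4.65% rose and 6.56% fell) and 4508 in H9 (30.2%; 15% rose and 15.2% fell), and 942 genes passed in both. Of those, 846 (89.8%) moved the same way and 96 (10.2%) moved opposite ways. All 96 also passed the test of the line difference, which passing effects of opposite sign in the same fit almost ensure. Of 3566 genes that passed in H9 and not in H1, 823 (23.1%) showed a line difference, and of 729 that passed in H1 alone, 209 (28.7%) did. A gene is therefore called restricted to a line below only where the line difference passed, and the 95% interval of the effect in the other line lay within 1.5-fold.

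**Figure D1:**
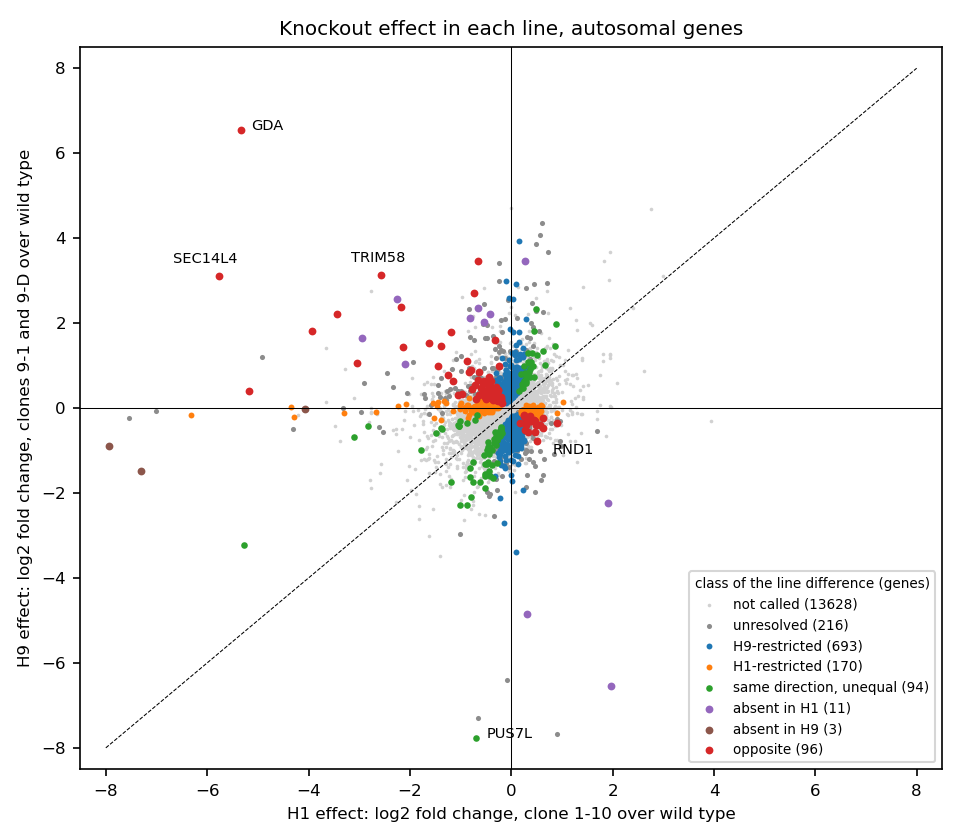
Each point is an autosomal gene, with the log2 fold change of clone 1-10 over H1 wild type on the x axis and of both H9 clones over H9 wild type on the y axis. Colours give the class of the line difference with its number of genes, the dashed line marks equal effects, and GDA stands in the corner of genes lower in the H1 knockout and higher in the H9 knockouts.

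The opposite class held 96 genes, 0.644% of those tested, and was lopsided: 75 fell in the H1 knockout and rose in the H9 knockouts, while 21 rose in H1 and fell in H9. The median size of the line difference was 0.913 (log2) in the former and 0.723 in the latter. Each of the 96 showed the line difference in clone 9-1 and in clone 9-D taken as separate contrasts of a 5-group fit. With only 1 clone in the fit as the H9 knockout, the line difference was called for 96 (clone 9-1) and 95 (clone 9-D) of them, and the opposite label was kept by 81 and 75. DESeq2 called the line difference for all 96 and kept the label for 73. All 96 kept the call of the line difference when any 1 library was left out. These genes were picked for opposite passing effects in the same libraries, so the kept calls of the line difference are not an independent check. The opposite label needs both single-line effects to pass as well, and 30 of the 96 kept it in all 15 such fits. It was held in all 15 by GDA, SEC14L4, EDNRB, TNFSF9, CDKN1A, NLRP2, LINC00458, RND1, HESX1 and PRICKLE1, and in 9 to 13 of them by the other opposite genes described below. The class had 56 genes without replicate 3 of H1 wild type, 59 without replicate 3 of clone 1-10 and 61 without its replicate 1. The 21 genes of the rarer direction became 12 without replicate 3 of H1 wild type, and 13 without replicate 1 of H1 wild type or replicate 2 of H9 wild type.

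Guanine deaminase, GDA, which turns guanine into xanthine, showed the largest line difference of the named genes. In H1 wild type its level was 7.37, 3.84 and 4.41 CPM (reads per library size, scaled by TMM), and in clone 1-10 it was 0.193, 0.0583 and 0.105 CPM, or 5 reads in all. In H9 the order was turned around, with 0.129, 0.206 and 0.245 CPM in wild type and 15.1 to 23.1 CPM (median 19.2) in the 6 knockout libraries. Wild-type and knockout libraries did not overlap in either line, and the log2 fold change was -5.34 in H1 and 6.56 in H9 (line difference 11.89 ± 0.52 SE, adjusted p = 1.35e-19 by edgeR). The unreplicated H1 wild-type library held 0.449 CPM, below all 3 replicated ones, and the unreplicated 1-10 library 0.0747 CPM.

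SEC14L4, of the SEC14-like family of lipid-binding proteins, followed the same pattern at a lower level. Its CPM were 6.17, 4.94 and 5.72 in H1 wild type against 0.193, 0.0583 and 0 in clone 1-10. In H9 they were 0.322, 0.412 and 0.245 in wild type against 2.43 to 3.33 (median 2.88) in the knockouts. The line difference was 8.88 ± 0.50 (adjusted p = 2.48e-16), and the unreplicated H1 pair went the same way, 5.21 against 0.224 CPM. TRIM58, a ubiquitin ligase known from red cell precursors, fell in H1 from 1.12, 0.390 and 0.362 CPM to 4 reads over 3 libraries and rose in H9 from 0.387, 0.756 and 0.613 to 3.86 to 7.29 CPM. DPEP3, a membrane dipeptidase, fell in H1 from 9.94, 9.82 and 9.05 to 5.6, 6.3 and 6.54 CPM and rose in H9 from 0.709, 1.65 and 1.72 to 10.5 to 20.4 CPM, with clone 9-D above clone 9-1. For GDA and SEC14L4 alike, the H9 wild type lay near the H1 knockout. The H9 knockouts lay above the H1 wild type for GDA and below it for SEC14L4, without overlap in either.

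Receptor and ligand genes were among the opposite ones. EDNRB, the endothelin receptor of neural crest cells, read 22.8, 19.4 and 29.4 CPM in H1 wild type and 13.3, 12.8 and 18 in clone 1-10, and rose in H9 from 1.61, 2.47 and 2.88 to 14.4 to 16 CPM (median 15). The knockouts of both lines thus ended at similar levels from unlike starts, and the line difference was 3.43 ± 0.21 (adjusted p = 2.56e-15). TNFSF9, the ligand of the T cell receptor 4-1BB, fell in H1 from 1.44, 0.780 and 0.941 CPM to 5 reads over 3 libraries and rose in H9 from 1.61, 3.23 and 3.19 to 3.77 to 7.23 CPM (median 5.66). FST, the secreted antagonist of activin, fell in H1 and rose in H9 by small steps (log2 -0.49 and 0.20, adjusted p = 0.00159 and 0.0393), and its H9 groups overlapped.

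Other opposite genes that rose in the H9 knockouts act in growth control, metabolism and chromatin. CDKN1A, the p21 inhibitor of cyclin-dependent kinases, read 15.4, 15.3 and 15.6 CPM in H1 wild type and 10.7, 12.4 and 10.1 in clone 1-10. In H9 it read 11.9, 11.6 and 11 in wild type and 14.3 to 17.7 (median 15.5) in the knockouts, so the groups of each line stood apart in opposite order (line difference 0.91 ± 0.14, adjusted p = 1.00e-05). PDK1, which restrains entry of pyruvate into the mitochondrial citric acid cycle, fell in H1 (log2 -0.69) and rose in H9 (0.22). TET1, which oxidises 5-methylcytosine, and VIM, the intermediate filament vimentin, showed smaller opposite changes, with line differences of 0.37 ± 0.08 and 0.42 ± 0.08. GATA6, a factor of primitive and definitive endoderm, stayed at or under 2.05 CPM in every library (line difference 3.56 ± 0.67). NLRP2, a member of the NOD-like receptor family, was near absent in H1, with 12 reads in wild type and 0 in clone 1-10 (at least 4.05-fold lower). In H9 it stood at 157, 151 and 160 CPM in wild type and rose to 198 to 213 CPM.

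In the reverse direction, RND1, a small GTPase that loosens the actin cytoskeleton, showed the largest line difference. It read 15.1, 15 and 14.4 CPM in H1 wild type and 20.1, 22 and 21.3 in clone 1-10, against 14.1, 15.3 and 16.4 in H9 wild type and 7.97 to 9.84 (median 8.76) in the H9 knockouts. The wild types of the lines were thus alike, and the line difference was -1.29 ± 0.13 (adjusted p = 3.69e-09). The unreplicated H1 pair did not share the rise, with 24.8 CPM in wild type and 20.4 in 1-10. HESX1, a homeobox repressor of the early forebrain, read 16.5, 14.1 and 13.8 CPM in H1 wild type and 22.1, 21.3 and 25.4 in clone 1-10, and fell in H9 from 8.38, 7.91 and 7.54 to 5.03 to 6.37 (median 5.87). PRICKLE1, of the planar cell polarity pathway, changed by 0.47 in H1 and -0.32 in H9 (log2), and CLDN6, a tight junction claudin of embryonic epithelium, by 0.16 and -0.35. ABCA1, the cholesterol exporter, CHD3, a helicase of the NuRD complex, and NAT8L, which makes N-acetylaspartate, had line differences of -0.89, -0.85 and -0.79. For ABCA1 too, the unreplicated H1 pair did not share the rise, with 42.81 CPM in wild type and 32.85 in 1-10. Its opposite label held in 11 of 15 fits without 1 library.

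**Figure D2:**
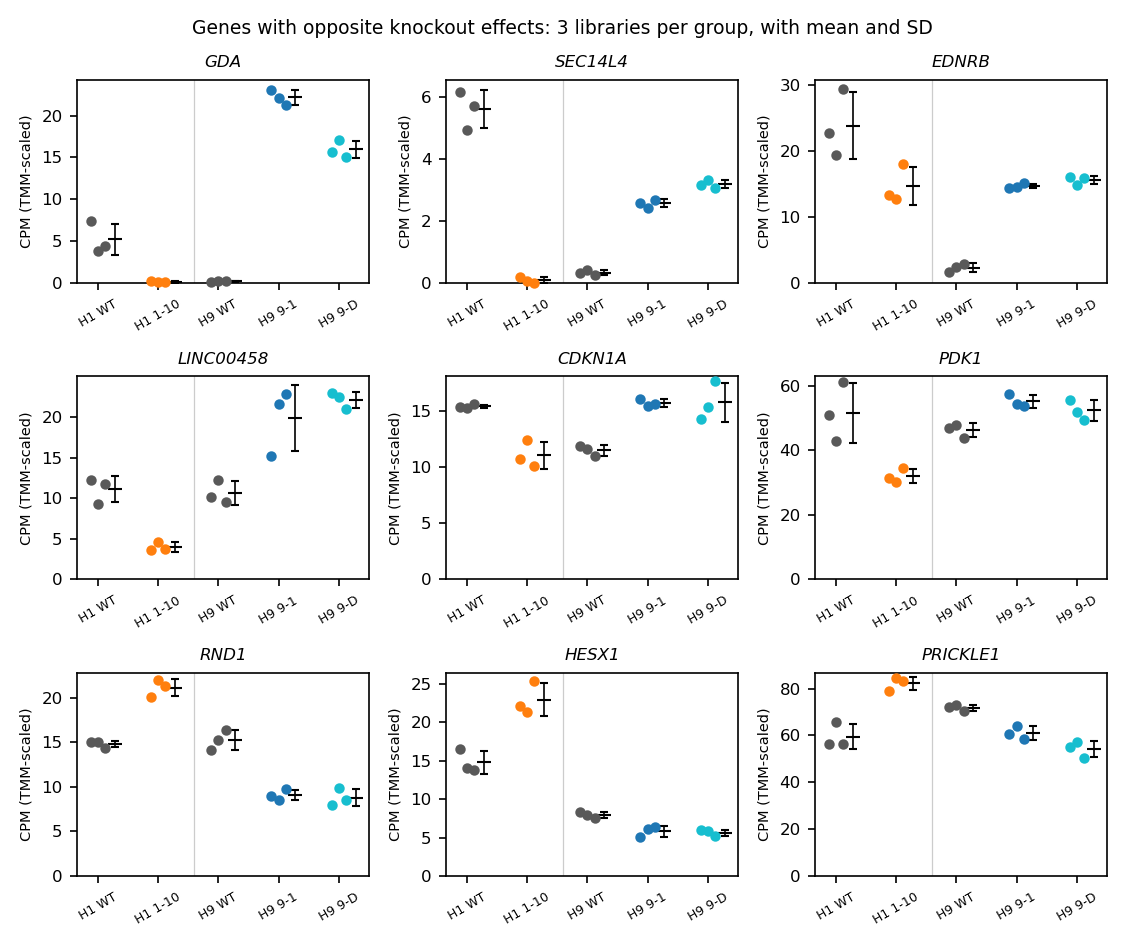
TMM-scaled CPM of 9 genes with opposite effects. Points are single libraries, 3 for each group, and the bar beside them is the mean with its SD. In the upper 6 panels clone 1-10 lies below H1 wild type and the H9 clones above H9 wild type, and in the RND1, HESX1 and PRICKLE1 panels this is reversed.

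The unreplicated pair of H1 libraries, 1 wild type and 1 of clone 1-10, gives another reading of the H1 side, as values without a test. Of the 1633 genes called in H1 with at least 10 counts in that pair, 79.2% had the sign of the replicated comparison. Among opposite genes the share was 57 of 67 (85.1%) for those that fell in H1 and 10 of 21 (47.6%) for those that rose there.

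Changes restricted to H9 were the most frequent class, with 693 genes or 54% of the called line differences, 342 with the H9 effect higher and 351 lower. Their typical line difference was small (median size 0.441 on the log2 scale), and 53 of the 693 exceeded 2-fold. MYH14, a heavy chain of non-muscle myosin II, read 4.45, 7.01 and 5.95 CPM in H9 wild type and 42.0 to 50.4 (median 46.1) in the H9 knockouts. In H1 it read 56.3, 56.6 and 58.0 in wild type and 54.2, 52.2 and 51.9 in clone 1-10, a log2 change of -0.11 with an interval of -0.27 to 0.05. Its line difference was 3.11 ± 0.13 (adjusted p = 2.44e-20). The odd group was thus the H9 wild type, and the H9 knockouts lay close to both H1 groups.

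ALPK3, an alpha kinase known from heart muscle, and THUMPD3, a tRNA methyltransferase subunit, had the same layout. ALPK3 read 11.3, 14.5 and 11.2 CPM in H9 wild type, 66.7 to 81.7 in the H9 knockouts and 52.0 to 60.6 in the 6 H1 libraries. THUMPD3 rose from 4.06, 4.33 and 4.29 to 23.2 to 28 CPM, below the H1 libraries at 49.5 to 55.7. TRDN, the triadin of the sarcoplasmic reticulum, differed from these. It was alike in H1 wild type (7.69, 7.28 and 9.12 CPM), clone 1-10 (8.49, 8.69 and 8.33) and H9 wild type (6.77, 9.76 and 8.09), and stood at 51.9 to 67.2 (median 62.8) in the H9 knockouts alone. SERPINB9, an inhibitor of granzyme B, rose in H9 from 78.3, 72.7 and 72.8 CPM to 260 to 376 (line difference 1.81 ± 0.14), and MT1X, a metallothionein, from 5.03, 8.11 and 7.42 to 20.3 to 27.9 (1.76 ± 0.21).

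Among the genes restricted to H9 that fell there, PCDHGA10, a clustered protocadherin of cell-cell recognition, went from 15.1, 14.2 and 16 CPM to 1.18 to 1.72. The H1 libraries held 22.3 to 26.4 (line difference -3.48 ± 0.15, edgeR adjusted p = 1.39e-19). SFRP1, a secreted WNT antagonist abundant in all libraries, fell from 1410, 1430 and 1420 CPM to 634 to 820 (median 696). Its level in H1 was 1170, 1170 and 1250 in wild type and 1200, 1200 and 1210 in clone 1-10, where the log2 change was 0.01 with an interval of -0.11 to 0.13. ZNF132, NSMCE1 of the SMC5/6 complex and ALG10B of N-glycan assembly had line differences of -2.57, -2.16 and -1.90. Counting was by symbol, and reads shared between near-identical genes such as clustered protocadherins, zinc finger paralogs and pseudogenes may have been split.

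Changes restricted to H1 numbered 170 (13.3% of the called line differences), 110 of which fell in clone 1-10 and 60 rose. They numbered 91 without replicate 3 of H1 wild type and 112 without replicate 1 of clone 1-10. LRAT, which esterifies retinol for storage, read 55.5, 45.6 and 47.6 CPM in H1 wild type and 105, 91.5 and 105 in clone 1-10, against 29.6, 32.5 and 29.8 in H9 wild type and 25.7 to 38.9 in the H9 knockouts. Its line difference was -0.87 ± 0.13 (adjusted p = 4.51e-06), and the H9 groups overlapped. EPCAM, the epithelial adhesion molecule, rose from 192, 183 and 196 to 253, 244 and 258 CPM, TAGLN, an actin-binding protein, from 109, 121 and 97.1 to 157, 190 and 150, and NECTIN3 from 50.8, 46.5 and 55.2 to 76.6, 68.0 and 76.3. In the other direction, C3 of complement fell from 87 reads to 4 and stayed in H9 at 29.6 to 37.5 CPM in wild type and 27.1 to 40.7 in the knockouts. ZNF502 had 27 reads in H1 wild type and 0 in clone 1-10 (at least 9.11-fold lower).

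**Figure D3:**
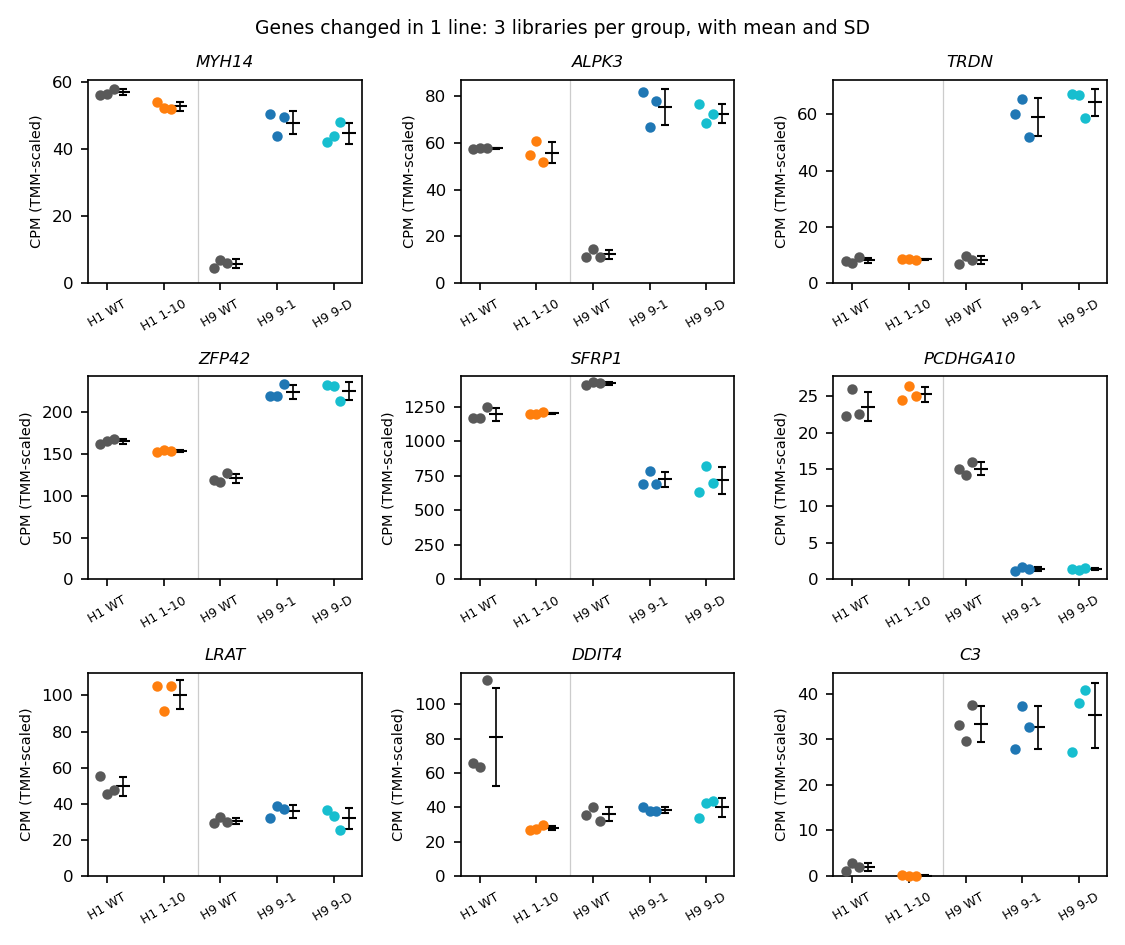
TMM-scaled CPM of 9 genes changed in 1 line, 3 libraries for each group with mean and SD. MYH14 to PCDHGA10 (the upper 6 panels) differ between wild type and knockout in H9 and not by test in H1. LRAT, DDIT4 and C3 do so in H1 and not by test in H9.

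A further 94 genes moved the same way in both lines by unequal amounts. PUS7L, a relative of pseudouridine synthases, was nearly lost in the H9 knockouts, with 2 reads over 6 libraries against 293 over the 3 wild-type ones (a ratio of 307, exact 95% counting interval 84.1 to 2540), and fell in H1 from 18.9, 16.6 and 19.8 CPM to 14, 9.97 and 9.91. CHGA, the secretory granule protein chromogranin A, fell from 64.3, 71.1 and 76.4 to 44.9, 45.7 and 58.2 CPM in H1 and further in H9, from 49.6, 59.3 and 43.3 to 12.4 to 14.8. FBN2, a fibrillin, fell by 0.76 in H1 and by 1.74 in H9 (log2). ZNF558 and SLC16A3, a lactate exporter, fell more in H1, by 2.82 and 3.09, than in H9, by 0.43 and 0.69. Another 14 genes had under 0.5 CPM on average in both groups of a line, 11 in H1 and 3 in H9. TRPC6, a calcium channel, rose in H9 from 1.35, 2.41 and 3 to 9.24 to 12.8 CPM and stayed at or under 0.520 CPM in H1. ECHDC3 fell in H1 from 527 reads to 3 (ratio 178, interval 60.5 to 865) and did not exceed 0.275 CPM in H9. The remaining 216 called genes met the rule of no class. The knockout effect passed the test in neither line for 61 of them, in H9 alone for 119 and in H1 alone for 36. For the genes that passed in 1 line, the interval of the other line did not lie within 1.5-fold.

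ZNF263 itself read 40.6, 42.3 and 39.8 CPM in H1 wild type and 32.7, 33.6 and 36.3 in clone 1-10, and 39.6, 44.1 and 42.4 in H9 wild type and 34.3 to 37.5 in the knockouts. The line difference of 0.04 ± 0.09 (adjusted p = 0.873) had an interval of -0.15 to 0.23. The labels do not give the edited part of the gene, so its RNA level does not check the genotype. Among the fixed pluripotency genes, the line difference missed the threshold for POU5F1 (0.02 ± 0.07), SOX2 (-0.03 ± 0.07) and LIN28A (0.06 ± 0.06). NANOG (0.26 ± 0.09, adjusted p = 0.0531) and the methyltransferase gene DNMT3B (0.20 ± 0.07, adjusted p = 0.0506) were just outside it. Without 1 library, NANOG was called in 4 of 15 fits (adjusted p down to 0.0374) and DNMT3B in 6 (down to 0.021). DESeq2 called DNMT3B (adjusted p = 0.0344) and not NANOG (0.0511). The 5 undifferentiated markers summed to 4930 to 7320 CPM over the 15 libraries. Trophoblast markers summed to under 1 CPM in each, and the 6 feeder fibroblast markers, with DCN and LUM too low to enter the test, to 190 to 476 CPM.

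The gene lists described from here on were chosen with earlier results of these data known. Their shares of calls beside those of all genes may partly reflect that choice and were not tested. In the wider list of core pluripotency genes, 7 of 24 tested members showed a line difference (29.2%, against 8.6% of all genes), 6 with the H9 effect higher and 1 lower. In H9, 19 rose and 3 fell (15% and 15.2% of all genes), and in H1, 4 rose and none fell (4.65% and 6.56%). ZFP42, or REX1, read 162, 166 and 168 CPM in H1 wild type and 153, 155 and 154 in clone 1-10, and rose in H9 from 119, 117 and 127 to 213 to 234 (line difference 1.00 ± 0.07, adjusted p = 3.22e-13). UTF1, a chromatin-bound factor of undifferentiated cells, rose in H9 from 22, 17.3 and 16.9 to 28.5 to 39.4 CPM, and GAL, the neuropeptide galanin, from 62.0, 69.9 and 69.3 to 144 to 180. Of 10 naive pluripotency genes, 2 were called (20%), both higher, with a median line difference of 0.544, which was 0.86 without replicate 2 of clone 1-10. The call of DPPA5, under 1 CPM in every library, was lost with DESeq2 (adjusted p = 0.108), which left 1 call, without a filter on low counts, with clone 9-D alone and in 7 of the 14 fits without 1 library that tested it. DPPA3, or STELLA, rose in H9 from 0.451, 0.412 and 0.552 to 1.69 to 2.74 CPM, where the H1 libraries held 1.37 to 2.75. Of 12 primed pluripotency genes, 4 were called (33.3%), all lower, with a median of -0.212 (-0.138 with clone 9-D alone). They included OTX2 (-0.57 ± 0.09) and DUSP6, an ERK phosphatase that fell in both lines and more so in H9 (-0.64 ± 0.08).

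Long non-coding and HERV-H-driven transcripts of stem cells, expressed from the repeats of an endogenous retrovirus, were called for 6 of 10 members (60%), all with the H9 effect higher (median 0.973). In H9, 7 of the 10 rose and 1 fell (15% and 15.2% of all genes), and in H1, 2 fell and none rose (6.56% and 4.65%). LINC00458 fell in H1 from 12.3, 9.30 and 11.7 CPM to 3.60, 4.66 and 3.69 and rose in H9 from 10.2, 12.3 and 9.50 to 15.2 to 22.9, from wild-type levels that were alike. HHLA1 rose in H9 from 19.1, 21.4 and 21.2 to 76.9 to 106 CPM and read 2.83 to 4.95 in the H1 libraries, and LINC01108 from 7.99, 7.70 and 10.5 to 32.9 to 62.3 against 2.39 to 4.03 in H1. LINC-ROR, named as a regulator of reprogramming, rose in H9 from 2.90, 3.44 and 4.17 to 11.7 to 16.3 CPM. The median of this list stood above the wild-type mean by 0.511 to 0.809 in the 6 H9 knockout libraries and below it by 0.0664 to 0.153 in the 3 of H1.

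**Figure D4:**
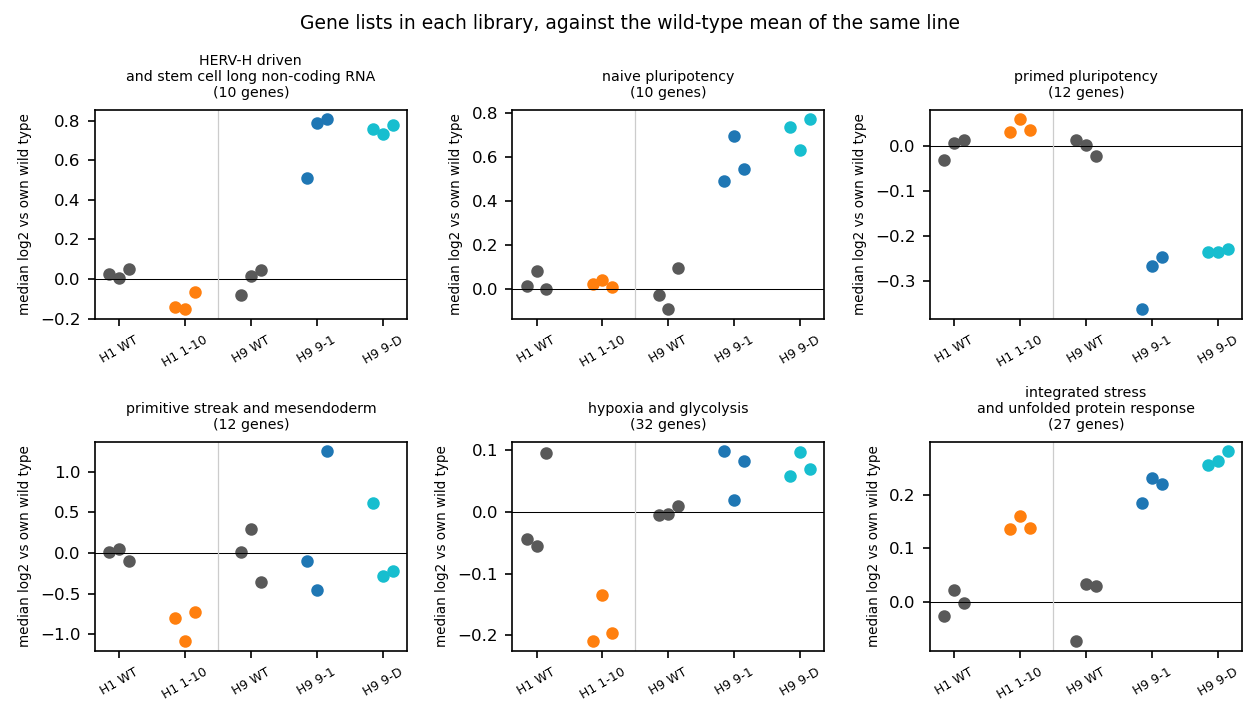
Median log2 level of the members of 6 gene lists in each of 15 libraries, relative to the mean of the wild-type libraries of the same line. In the HERV-H, naive and primed panels all 6 H9 knockout libraries lie apart from all other libraries. In the primitive streak panel they spread to both sides of 0.

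Primitive streak and mesendoderm genes were called for 6 of 12 members (50%), all with the H9 effect higher (median 1.68). This came mainly from the H1 side, where 6 fell and none rose (6.56% and 4.65% of all genes). MIXL1 read 8.82, 9.43 and 9.26 CPM in H1 wild type and 1.61, 2.51 and 5.06 in clone 1-10. In H9 it read 3.48, 4.26 and 2.45 in wild type and 1.33 to 9.63 in the knockouts, where replicate 3 of clone 9-1 was the high one. The unreplicated H1 wild-type library held 0.808 CPM of MIXL1, and over 7 members the unreplicated pair had a median log2 ratio of 0.454, opposite in sign to the replicated libraries. The calls fell from 6 to 2 without replicate 3 of H9 wild type, and MIXL1 and T, the brachyury gene, were among those lost (edgeR adjusted p = 0.0501 and 0.0542). MIXL1 also lost its call with DESeq2 (adjusted p = 0.225) and, in edgeR, without replicate 1 of clone 1-10 (0.0681). T lost its call in 4 of 15 fits without 1 library. FGF8 and NODAL were called from the H9 side and kept their calls without any 1 library. NODAL read 11.3, 13.1 and 14.2 CPM in H9 wild type and 26.9 to 48.7 in the knockouts, against 10.3 to 17.4 in H1 (line difference 1.03 ± 0.23, adjusted p = 0.00189).

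Hypoxia and glycolysis genes gave 15 calls of 32 (46.9%), all with the H9 effect higher, at a modest median of 0.257. In H1, 13 fell and none rose (6.56% and 4.65% of all genes), and in H9, 12 rose and 5 fell (15% and 15.2%). DDIT4, a stress-induced inhibitor of mTOR that is in the stress list, and BNIP3, a mitophagy receptor, were restricted to H1. DDIT4 read 65.7, 63.5 and 114 CPM in H1 wild type and 27.1, 27.3 and 29.6 in clone 1-10, and 35.8, 40.4 and 32.0 in H9 wild type and 33.9 to 43.8 in the knockouts. BNIP3 read 56.2, 41.8 and 90.3 against 22.8, 20.8 and 22 in H1 and 29.5, 29 and 25.2 against 21.8 to 27.6 in H9. In both genes replicate 3 of H1 wild type was the highest library. Without it the list had 9 calls and a median of 0.206. VEGFA and PFKP, a phosphofructokinase, rose in H9, VEGFA from 48.6, 48.2 and 50.3 to 62.5 to 70.2 CPM and PFKP from 156, 155 and 153 to 205 to 222.

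Signalling lists also carried line differences. NODAL and TGF-beta genes gave 7 calls of 22 (31.8%), 6 higher and 1 lower, with LEFTY1, a NODAL antagonist, rising in H9 from 23.7, 29.4 and 27.8 to 45.1 to 64.8 CPM against 7.67 to 9.82 in H1. ACVR1B, the type I receptor for activin and NODAL, fell in H9 from 57.0, 55.2 and 54.9 to 33.8 to 37.6, close to the H1 libraries at 36.6 to 40.9. FGF and ERK genes gave 13 calls of 27 (48.1%), 10 higher and 3 lower. EGR1, an immediate early target of ERK, fell in H9 from 21.9, 16.6 and 23.2 CPM to 9.21 to 12.2, and SPRY1, a feedback inhibitor, fell in H1 from 35.6, 36.0 and 35.8 to 28, 24.2 and 26.2. WNT genes gave 7 calls of 30 (23.3%), 2 higher and 5 lower. In H9, 15 of the 30 fell and 4 rose (15.2% and 15% of all genes). H1 leaned the same way, with 6 that fell and 1 that rose (6.56% and 4.65%). The median log2 change of the list was -0.24 in H1 and -0.277 in H9, and the median line difference -0.0559. FZD2 and FZD8, both WNT receptors, had line differences of -1.03 ± 0.11 and -1.02 ± 0.12. WNT calls numbered 4 without replicate 2 of clone 1-10.

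**Figure D5:**
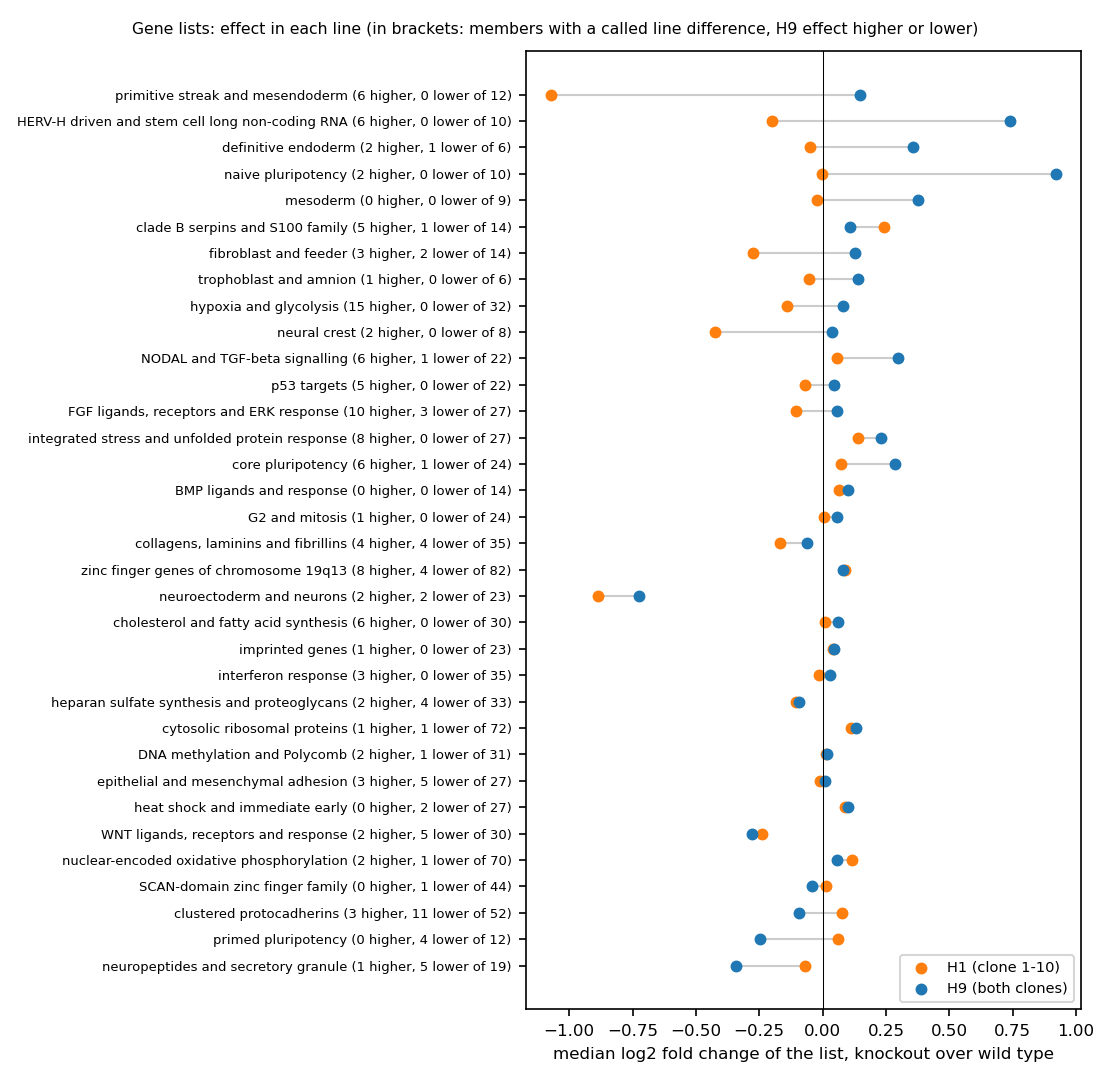
Median log2 fold change of the tested members of 34 gene lists in H1 (clone 1-10 over wild type) and H9 (both clones over wild type), with the number of members whose line difference passed the test. Lists are ordered by their median line difference. Neuroectoderm genes lie far to the left in both lines.

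In the integrated stress, p53 and lipid lists every called member had the higher effect in H9. Integrated stress and unfolded protein response genes gave 8 calls of 27 (29.6%), all higher. Of the 27, 23 rose in H9 and 6 in H1 (15% and 4.65% of all genes). The list had 4 calls with clone 9-D alone as the H9 knockout. SLC7A5, an amino acid transporter, rose in H9 from 812, 818 and 926 CPM to 1030 to 1210. Targets of p53 gave 5 of 22 (22.7%), all higher, with CDKN1A opposite, and 3 calls without replicate 3 of H1 wild type. Cholesterol and fatty acid genes gave 6 of 30 (20%), all higher, and 2 without replicate 3 of clone 1-10. Heat shock and immediate early genes gave 2 of 27 (7.41%), both lower, EGR1 and the chaperone gene HSPA1A. HSPA1A rose in H1 from 32.8, 33.1 and 29.5 CPM to 39.2, 41.2 and 36.3 (line difference -0.37 ± 0.12, edgeR adjusted p = 0.0481). Its call was lost with DESeq2 (adjusted p = 0.0691) and in 10 of 15 edgeR fits without 1 library. It was also lost in edgeR with a filter of 1 CPM in 3 libraries (0.0537) and with clone 9-1 alone (0.219).

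Clustered protocadherins gave 14 calls of 52 (26.9%), 11 lower and 3 higher. PCDHB5 rose in both lines, in H1 from 37.7, 42.0 and 39.0 to 54.9, 54.4 and 54.1 CPM and more in H9, from 8.77, 11.8 and 9.07 to 29.1 to 41.3. Neuropeptide and secretory granule genes gave 6 of 19 (31.6%), 5 lower and 1 higher, and 3 calls without replicate 2 of H1 wild type. Zinc finger genes of chromosome 19q13 gave 12 of 82 (14.6%), among them ZNF585B, which rose in H9 from 0.322, 0.344 and 0.490 CPM to 4.74 to 7.44 near the H1 libraries at 7.61 to 11.1, and ZNF544, which fell in H9 (line difference -1.10 ± 0.09). Neuroectoderm genes fell in both lines, 14 of 23 in H1 and 10 in H9 (6.56% and 15.2% of all genes). Of the 23, 4 showed a line difference (17.4%), 2 higher (TUBB3 and ELAVL3) and 2 lower (NCAM1 and HESX1).

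Matrix, adhesion and lineage lists held calls in both directions. Clade B serpins and S100 genes gave 6 calls of 14 (42.9%), 5 higher and 1 lower, and 3 with clone 9-1 alone as the H9 knockout. S100A11, a calcium-binding protein, rose in H1 from 61.4, 55.6 and 64.1 CPM to 73.9, 83.5 and 74.6 and did not pass in H9 (log2 -0.15, adjusted p = 0.0941). Collagens, laminins and fibrillins gave 8 of 35 (22.9%), 4 in each direction. COL2A1, the cartilage collagen, fell in H1 from 59.1, 68.3 and 66.7 CPM to 35, 43.4 and 31.1 and read 39.9 to 49.8 in H9 wild type and 41.7 to 50.2 in the H9 knockouts. COL1A1, a fibroblast collagen, rose in H9 from 153, 177 and 157 to 217 to 270 CPM, while DCN and LUM, also markers of fibroblasts, were too low to enter the test. The 6 fibroblast markers together summed to 360 to 430 CPM in H9 wild type and 374 to 476 in the H9 knockouts, and their part in the result was not tested. Adhesion genes gave 8 of 27 (29.6%), and 5 without replicate 2 of H9 wild type. NCAM1, a neural adhesion molecule, fell in H9 from 20.4, 20.8 and 22.4 to 8.35 to 9.63 CPM. Heparan sulfate genes gave 6 of 33 (18.2%), and 3 without replicate 1 of clone 1-10. Definitive endoderm genes gave 3 calls of 6 (50%), GATA6 and FOXA2 higher and KIT lower. FOXA2, an endoderm factor, rose in H9 from 0.645, 0.344 and 0.368 to 1.2 to 2.27 CPM, below the H1 libraries at 3.04 to 5.45. The line difference of KIT was -0.517 to -0.422 over the fits without 1 library.

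Other lists stayed near or below the share of all genes. Cytosolic ribosomal proteins had 2 calls of 72 (2.78%), although 35 rose in H9 and 7 in H1 (15% and 4.65% of all genes). Oxidative phosphorylation genes had 3 of 70 (4.29%), with 1 call without replicate 1 of H1 wild type and 7 with clone 9-1 alone as the H9 knockout, the latter above the share of all genes. Of the 3, ATP5G2 and NDUFV1 lost their calls in 10 and 8 of 15 fits without 1 library. The SCAN-domain zinc finger family had 1 call of 44 (2.27%), G2 and mitosis genes 1 of 24 (4.17%) and imprinted genes 1 of 23 (4.35%). No call was made among 14 BMP and 9 mesoderm genes by the main edgeR fit or DESeq2 (1 and 2 at an unadjusted p under 0.05 by edgeR). Other edgeR fits made at most 1 call in each list. An example was the fit without replicate 3 of H1 wild type for BMP, and that with clone 9-D alone for mesoderm.

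Taken alone as contrasts of a 5-group fit, clone 9-1 gave 1227 line differences (8.23%) and clone 9-D gave 1111 (7.45%). Both share the H9 and H1 wild-type libraries. Of the 1283 called genes, 845 were called with each clone, 389 with 1 clone and 49 with neither. The clones themselves differed for 36 genes (0.241%), and 16 of those were among the 1283.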

How the data were processed

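Polyadenylated RNA was sequenced in 18 libraries, of which the 15 replicated ones were compared, and an unreplicated H1 pair was read without a test. The deposited tables hold raw read counts for 27130 gene symbols. Reads were aligned with STAR to hg19 and counted with featureCounts, per the submitters' processing notes, and versions are not given in the sources used here. The authors' deposited DESeq2 tables were not used. Symbols were matched to RefSeq GRCh38.p14 for chromosomes only (25687 matched, 1347 by an older name, 24478 autosomal). That build differs from hg19, and the promoter stretches are from GRCh38.p14.

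Libraries held 9.66 to 21.0 M counts, so that 3 counts, the limit a count of 0 allows, equal 0.143 to 0.31 CPM. Such limits and counting intervals cover counting error only. Between replicates, chi-square per gene was 1.83 to 5.94 over 15 pairs of libraries, so none was a repeat of another within counting error.

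The counts were fitted with edgeR 4.0.16 (R 4.3.3) quasi-likelihood, TMM scaling and filterByExpr over line by genotype, with both H9 clones as 1 group, and Benjamini-Hochberg adjustment over all 15802 tested genes at 0.05. SE is the absolute log2 fold change over the square root of F. Classes were taken in the order opposite, same direction, absent (under 0.5 CPM in both groups of a line), restricted and unresolved. Simulated on 15588 genes, the fit recovered 75.8% of 99 line differences of log2 1 and 45% of 100 of log2 0.5, with 3 false calls. Each simulated gene had 1 mean in all groups, apart from these changes in the H9 knockouts. No difference between lines or clones and no shared knockout effect was simulated, so the shares do not give the error rate in the real libraries. Bounds against 0 counts use 3 counts over the group.

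Named genes were ZNF263 and 5 pluripotency genes, the largest line differences of each class (in each direction for the opposite and restricted classes) with at least 2 CPM in a group, and up to 4 called members of smallest p per list (157 genes). The 34 lists, the rule and the comparison were chosen with earlier results of these data known. Lists are described by counts and medians without a test. Alternatives were DESeq2 1.42.0, RLE scaling, other filters, a 5-group model, each clone alone, a replicate block, a narrower interval and leaving out each library.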

Additional observations from a re-analysis of the deposited data

Results flagged for a closer look

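The knockout effect differed between H9 and H1, by the test of the difference itself, for 1283 autosomal genes. The 75 genes that fell in H1 and rose in H9 and the 21 that did the reverse are those whose effects differ in sign.

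Among the named genes, the H9 clones differed from each other for 6 (edgeR, adjusted p over all genes). On the log2 scale, 9-D was above 9-1 by 0.70 for DPEP3 (adjusted p = 0.000985), 0.36 for FBN2 (0.0232), 0.36 for PCDHB5 (0.0253), 0.55 for PRKCDBP (0.00803) and 0.32 for ZNF649 (0.0297). For SERPINB9 the difference was -0.41 (5.71e-05), so 9-1 was the higher. For all 6, both clones lay on the same side of H9 wild type.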

How the results depend on the processing

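Over 24 alternatives the number of called line differences ranged from 980 to 1461. With DESeq2 it was 1178 (672 with the H9 effect higher, 506 lower, 79 opposite) and with clone 9-D alone as the H9 knockout 1070. Replicate numbers paired the libraries weakly at most: correlations of same-numbered deviations were -0.0268 to 0.0796 over 12 pairs. Those of different-numbered deviations were -0.0796 to 0.0351. The fit with the replicate block gave 1461 calls, 121 of them opposite. Leaving out 1 library at a time gave 980 to 1387 calls, 56 to 98 opposite genes (44 to 77 with the H9 effect higher, 12 to 21 lower), 524 to 750 restricted to H9 and 91 to 188 restricted to H1. The opposite count was lowest, at 56, without replicate 3 of H1 wild type, 59 without replicate 3 of clone 1-10 and 61 without its replicate 1. It was 86 without replicate 2 of clone 1-10 and 69 without replicate 3 of H9 wild type. The class needs called effects in both lines. Whether the number of libraries or these particular ones lowered the count was not tested. With a narrower interval for the other line, 470 genes were restricted to H9 and 118 to H1.

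Of 151 named genes with a call, 123 kept it under every alternative, 28 lost it under at least 1, and none changed sign. Of the named genes without a call, NANOG gained one under 2 of 8 alternatives other than leaving out a library, and DNMT3B under 5 of 8. Line differences near 0 changed sign without being called: POU5F1 to -0.0123 with clone 9-1 alone, and from -0.00705 to 0.0839 with 1 library left out (below 0 without H1 wild type replicate 2, clone 1-10 replicate 1 or 3, or clone 9-D replicate 3). SOX2 ran from -0.0586 to 0.00312 (above 0 without clone 1-10 replicate 2) and ZNF263 from -0.00775 to 0.0751 (below 0 without H9 wild type replicate 1). The median SE was 0.0971 in H1 and 0.0807 in H9.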
